A study of Mus musculus with 12 samples.

Results

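The satellite glia genes described here are 10 genes chosen by name, Fabp7, Gfap, Glul, Gja1, Slc1a3, S100b, Cadm2, Cdh19, Sox2 and Ednrb, and each is 1 of the 44345 gene names of the count table. All 10 were among the 16238 genes that passed the filter on low counts. RNA came from whole sciatic L4-L6 dorsal root ganglia (DRG) of C57BL/6 mice aged 5 to 8 weeks at treatment. Each sample is a pool from 2 mice. The 4 groups of 3 samples were SH Sham (10 days of standard housing, then sham surgery), SH SNA (standard housing, then sciatic nerve axotomy), EE Sham (10 days of environmental enrichment, then sham surgery) and EE + SNA (enrichment, then axotomy). All were collected 24 h after surgery. The study describes EE Sham as an earlier dataset, so a difference in when these samples were made and the EE Sham label cannot be told apart. Of the 10 genes, Glul was higher in both axotomy groups than in SH Sham, by 1.38-fold in SH SNA and 1.36-fold in EE + SNA. Gfap and Cdh19 were higher in SH SNA by smaller margins over the spread between samples. No gene of the 10 passed the adjusted threshold between housings in the main edgeR test.

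Satellite glia wrap the cell bodies of sensory neurons in the DRG. They take up glutamate and turn it into glutamine, they are coupled to each other by gap junctions, and they are known to become GFAP positive after damage to the peripheral axon. Several of their genes are not theirs alone. For example, S100b, Cdh19, Ednrb and Sox2 are also used by Schwann cells and their precursors and Cadm2 by neurons. The genes not named here, Gfap and Gja1 among them, are not thereby specific to satellite glia. Which cells the RNA of Gfap or of any other gene came from was not measured. The libraries are of whole ganglia, so a change in the number of cells of a type and a change in RNA per cell cannot be told apart.

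The 12 libraries held 11343579 to 22871460 reads on genes, with a median of 12769394, and 46.7% to 47.6% of the reads lay on no gene. The injury check held, as all 6 genes of a list of axotomy markers, among them the transcription factor gene Atf3 (log2 fold change 2.12, SE 0.0882), rose after SH SNA. Levels between samples are given as CPM, the reads on a gene scaled to the library's reads on genes that passed the filter. Library sizes were adjusted by TMM, a scaling for library composition, over all 12 samples. The reads behind a value ran from 48 (Gfap) to 17968 (S100b). In the mm10 annotation, Glul lies at chr1:153899944-153909723 on the plus strand and Gfap at chr11:102887336-102900912 on the minus strand. Cdh19 lies at chr1:110888326-110977584 and Ednrb at chr14:103814625-103844402, both on the minus strand. Exons of Glul share 116 of 3323 bases with Teddm2 on the other strand and 93 with the microRNA gene Mir8114, and exons of Cadm2 share 256 of 9809 bases with an antisense transcript, 1700010K23Rik. The strand setting of the counting is not given in the sources used here, so reads in those shared bases cannot be assigned to one gene, whereas the other 8 genes share no exon base.

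Promoter sequences, from 250 bases before to 50 bases after the RefSeq start site, were found for 9 of the 10 genes in RefSeq for GRCm38.p6, and 3 are shown. Glul and Gfap rose after injury, and Slc1a3, a gene of the same glutamate pathway as Glul, was not called. Capitals mark matches, on either strand, to TTCNNNGAA (the palindrome bound by STAT factors), TGANTCA (bound by AP-1 factors) or TATAAA (the TATA box).
Glul, chr1:153899679-153899978, plus strand: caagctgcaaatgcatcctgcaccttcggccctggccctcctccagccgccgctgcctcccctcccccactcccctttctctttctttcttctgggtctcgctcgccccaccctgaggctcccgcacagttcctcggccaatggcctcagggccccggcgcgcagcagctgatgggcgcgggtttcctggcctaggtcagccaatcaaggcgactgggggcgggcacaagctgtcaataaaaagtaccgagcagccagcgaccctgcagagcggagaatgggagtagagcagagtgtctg
Gfap, chr11:102897151-102897450, minus strand: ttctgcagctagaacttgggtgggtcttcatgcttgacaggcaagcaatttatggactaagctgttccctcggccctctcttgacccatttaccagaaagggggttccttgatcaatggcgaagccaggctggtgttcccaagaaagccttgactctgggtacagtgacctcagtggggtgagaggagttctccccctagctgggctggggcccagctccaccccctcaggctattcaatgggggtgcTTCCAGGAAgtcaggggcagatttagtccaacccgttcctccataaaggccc
Slc1a3, chr15:8710758-8711057, minus strand: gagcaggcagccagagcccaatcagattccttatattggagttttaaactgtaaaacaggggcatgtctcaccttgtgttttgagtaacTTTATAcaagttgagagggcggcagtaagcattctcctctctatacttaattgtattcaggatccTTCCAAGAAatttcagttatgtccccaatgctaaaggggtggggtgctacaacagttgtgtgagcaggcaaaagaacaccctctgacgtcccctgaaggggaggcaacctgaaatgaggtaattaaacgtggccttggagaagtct
The STAT palindrome was in 8.3% of 32851 mouse promoters of this length and in 2 of the 9 found here, at position −2 from the start site in Gfap and −96 in Slc1a3. The window of Glul held none of these 3 motifs. TGANTCA was in 7.81% of all promoters and in 1 of the 9, Gja1 at −19, and TATAAA was in 13.6% of all promoters and in 1 of the 9, Slc1a3 at −161. These are letter matches and no binding was measured in these samples.

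The level of each gene per transcript length (FPKM, reads scaled by both transcript length and library size) set the genes in a wide order. In SH Sham the FPKM averaged 546 ± 25.2 (SD, n = 3) for S100b, a calcium-binding protein, 139 ± 10.6 for Glul, the glutamine synthetase, and 135 ± 17.3 for Fabp7, the brain type fatty acid binding protein. It averaged 23.7 ± 1.83 for Cdh19, a cadherin, 22.4 ± 3.89 for Ednrb, the endothelin B receptor, and 9.91 ± 0.982 for Gja1, which encodes connexin 43. The 4 genes of lowest FPKM were Sox2, a progenitor transcription factor (5.29 ± 0.467), Cadm2, a cell adhesion molecule (3.41 ± 0.381), Slc1a3, the glutamate transporter GLAST (1.78 ± 0.178), and Gfap, the glial intermediate filament (1.52 ± 0.290). The FPKM of neighbours in this order overlapped in SH Sham for Glul and Fabp7, for Cdh19 and Ednrb, and for Slc1a3 and Gfap, and not for the other neighbours.

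**Figure D1:**
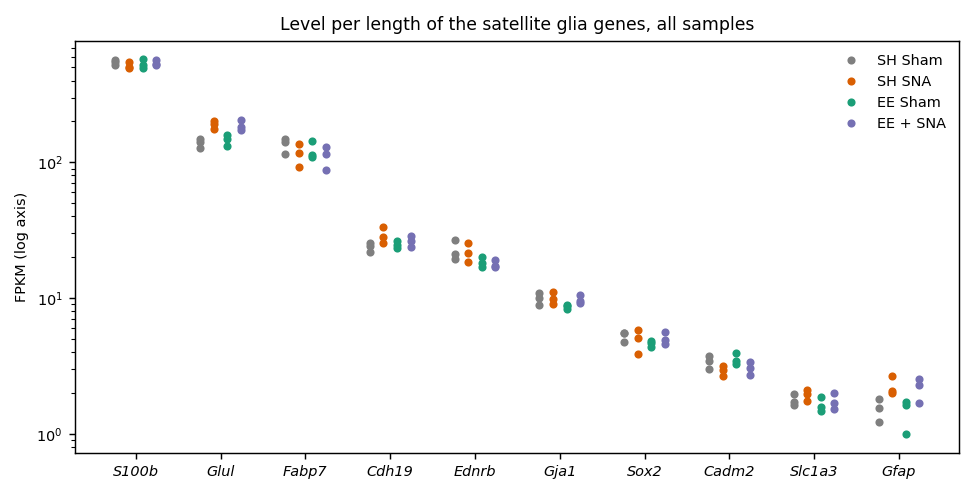
FPKM (log axis) of the 10 satellite glia genes in each of the 12 samples, coloured by group and ordered by the mean in SH Sham. S100b lies between 495 and 572 FPKM in every sample and Gfap between 0.997 and 2.65.

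After SH SNA, 3 of the 10 genes rose against SH Sham at an adjusted P-value below 0.05 (Benjamini-Hochberg over all genes tested, edgeR quasi-likelihood test), and none fell. Of all genes 11.2% were called, 6.06% higher and 5.17% lower. The 3 were Glul, Gfap and Cdh19. They were also the 3 that passed the unadjusted threshold of 0.05 used in the study, beside 25.2% of all genes. The median log2 fold change of the 10 was −0.00208, beside 0.00465 over all genes tested, with 5 of the 10 above and 5 below 0. The same 3 genes were the only ones of the 10 whose SH SNA samples did not overlap with SH Sham, beside 29.4% of all genes.

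Glul, the enzyme that joins glutamate and ammonia to glutamine, had 425, 489 and 469 CPM in the 3 SH Sham samples and 641, 598 and 672 CPM in the 3 SH SNA samples. It had 451, 523 and 492 CPM in EE Sham and 623, 572 and 691 CPM in EE + SNA. All 6 axotomy samples lay above all 6 sham samples. Glul was 1.38-fold higher in SH SNA than in SH Sham (log2 fold change 0.47, SE 0.0681, adjusted P = 0.000890, edgeR). In EE + SNA it was 1.36-fold higher than in SH Sham (0.44, SE 0.0766, adjusted P = 0.00278) and 1.28-fold higher than in EE Sham (0.36, SE 0.0819, adjusted P = 0.0297). The call against SH Sham held under all 15 alternatives in both comparisons. The call against EE Sham held under 9 of 15, with adjusted P from 0.000101 to 0.116. It was lost without EE Sham replicate 1 (adjusted P = 0.0882) or 3 (0.116), without EE + SNA replicate 1 (0.0956) or 3 (0.0922), and with limma on FPKM.

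Gfap, the intermediate filament gene used to see reactive glia, had 5.16, 7.53 and 6.49 CPM in SH Sham and 11.2, 8.87 and 8.44 CPM in SH SNA. It had 4.33, 6.83 and 7.23 CPM in EE Sham and 7.30, 9.62 and 10.9 CPM in EE + SNA. The SH SNA samples lay above both sham groups, and among the EE + SNA samples 1 (7.30 CPM) lay within the SH Sham range. Gfap was higher in SH SNA (log2 fold change 0.58, SE 0.161, adjusted P = 0.0357, edgeR). Between EE + SNA and SH Sham its log2 fold change was 0.55 (SE 0.172), past the unadjusted threshold alone (adjusted P = 0.0562, edgeR). Under 5 of 15 alternatives it passed the adjusted one (adjusted P from 0.00651 to 0.200). Between EE + SNA and EE Sham the log2 fold change was 0.59 (SE 0.198), again past the unadjusted threshold alone (adjusted P = 0.118, edgeR). There 2 of 15 alternatives passed the adjusted one (0.00857 to 0.317). The call after SH SNA held under 8 of 15 alternatives, with adjusted P from 0.00258 to 0.157, and was lost without SH Sham replicate 1 (0.133) or 3 (0.0887) and without SH SNA replicate 1 (0.157). It was also lost with all 12 samples in 1 fit (0.0659), with the replicate block (0.0777) and with limma on FPKM (0.0873 and 0.0890). With 48 to 221 reads a sample, Gfap had the fewest reads of the 10 genes.

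Cdh19, a cadherin of the glial and Schwann cell lineage, had 78.0, 72.8 and 66.4 CPM in SH Sham and 102, 79.2 and 86.2 CPM in SH SNA. It had 73.4, 79.0 and 74.8 CPM in EE Sham and 82.0, 87.9 and 74.1 CPM in EE + SNA. The lowest SH SNA sample lay just above the highest SH Sham sample, at 79.2 against 78.0 CPM, while EE + SNA overlapped with both sham groups. Cdh19 was 1.23-fold higher in SH SNA (log2 fold change 0.30, SE 0.0893, adjusted P = 0.0493, edgeR) and 1.12-fold higher in EE + SNA than in SH Sham without passing either threshold (0.17, SE 0.0800, unadjusted P = 0.0550). The SH SNA call held under 8 of 15 alternatives (adjusted P from 0.00102 to 0.190). It was lost without SH SNA replicate 1, the highest sample, where the log2 fold change was 0.19 in place of 0.30 (adjusted P = 0.190), without SH SNA replicate 3 (0.0708), and without SH Sham replicate 2 (0.111) or 3 (0.167). It was also lost with scaling by library size alone (0.0588) and with limma on FPKM (0.121 and 0.125).

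**Figure D2:**
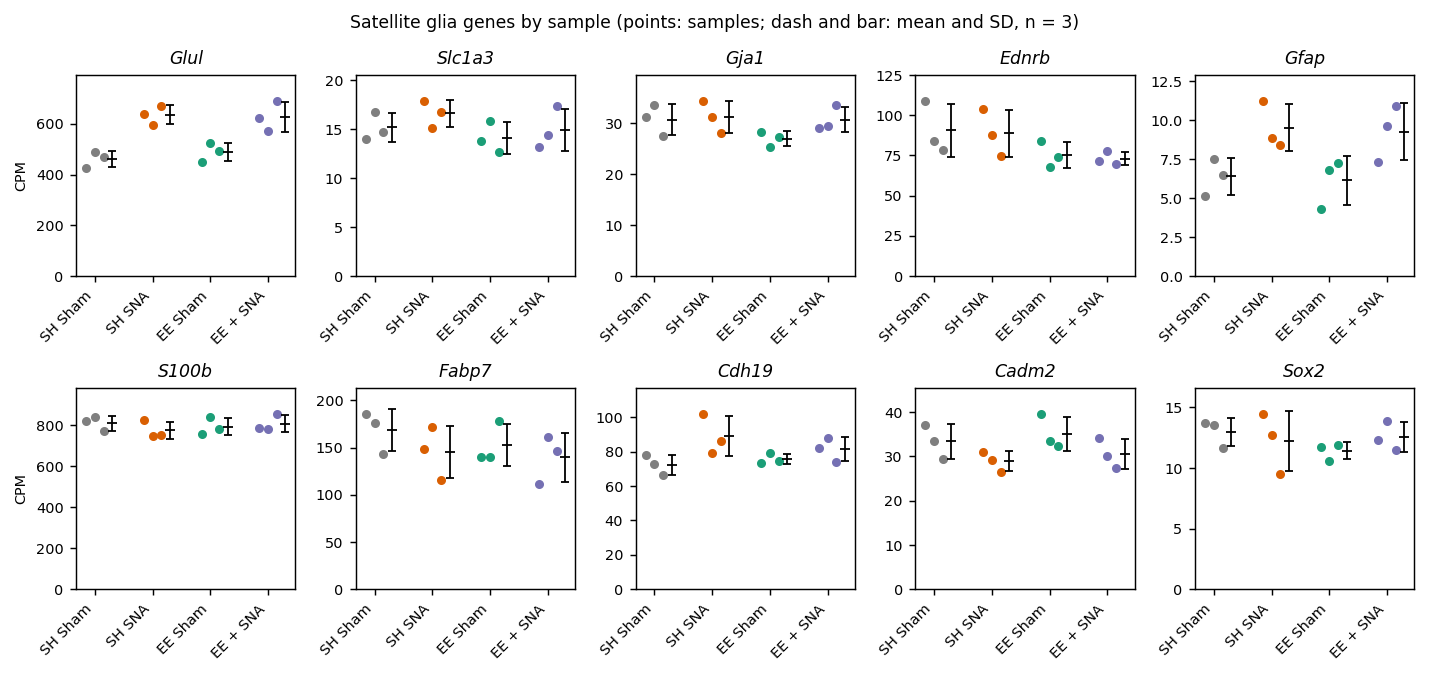
CPM of each satellite glia gene by group, on axes that start at 0, with 1 point a sample and the mean and SD (n = 3) beside the points. Glul separates the 6 axotomy samples (572 to 691 CPM) from the 6 sham samples (425 to 523 CPM), while S100b lies between 749 and 853 CPM in all 12.

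Slc1a3 takes glutamate, the substrate of Glul, up into the cell, and Gja1 encodes a gap junction protein that couples satellite glia. Slc1a3 had 14.0, 16.8 and 14.7 CPM in SH Sham and 17.9, 15.1 and 16.8 CPM in SH SNA. It had 13.8, 15.9 and 12.7 CPM in EE Sham and 13.2, 14.4 and 17.3 CPM in EE + SNA. All 4 groups of Slc1a3 overlapped, and the log2 fold change after SH SNA was 0.14 (SE 0.107, adjusted P = 0.478, edgeR). Gja1 had 31.2, 33.5 and 27.5 CPM in SH Sham and 34.4, 31.2 and 28.0 CPM in SH SNA. It had 28.2, 25.3 and 27.4 CPM in EE Sham and 29.0, 29.5 and 33.6 CPM in EE + SNA. The 3 EE + SNA samples of Gja1 lay above the 3 EE Sham samples, with a log2 fold change of 0.18 (SE 0.0855) and an unadjusted P = 0.0583, edgeR, that passed no threshold. After SH SNA the log2 fold change of Gja1 was 0.02 (SE 0.0989).

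Of the marker genes, S100b was the steadiest, with 819, 840 and 769 CPM in SH Sham and 823, 749 and 749 CPM in SH SNA. It had 757, 839 and 779 CPM in EE Sham and 783, 782 and 853 CPM in EE + SNA. Its highest sample was 1.14-fold its lowest, against 2.59-fold for Gfap, and its log2 fold changes against SH Sham were −0.06 (SE 0.0636) after SH SNA, −0.03 (SE 0.0680) in EE Sham and −0.01 (SE 0.0617) in EE + SNA. Fabp7 had 185, 176 and 143 CPM in SH Sham and 148, 172 and 116 CPM in SH SNA. It had 141, 140 and 179 CPM in EE Sham and 111, 161 and 146 CPM in EE + SNA. Fabp7 was lower than SH Sham on average in each other group, and its groups overlapped. In EE + SNA its log2 fold change was −0.27 (SE 0.122, unadjusted P = 0.0477, adjusted P = 0.178, edgeR), and it was −0.14 without EE + SNA replicate 1. Of 15 alternatives, 7 passed the unadjusted threshold there and 1 the adjusted one.

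Cadm2 had 37.1, 33.6 and 29.4 CPM in SH Sham and 31.0, 29.2 and 26.5 CPM in SH SNA. It had 39.5, 33.5 and 32.4 CPM in EE Sham and 34.1, 30.1 and 27.3 CPM in EE + SNA. Both axotomy groups averaged lower than their sham groups and overlapped with them, with log2 fold changes of −0.21 (SE 0.0983, adjusted P = 0.212, edgeR) after SH SNA and −0.21 (adjusted P = 0.262, edgeR) between EE + SNA and EE Sham. Sox2 had 13.7, 13.6 and 11.6 CPM in SH Sham and 14.5, 12.8 and 9.55 CPM in SH SNA. It had 11.7, 10.6 and 11.9 CPM in EE Sham and 12.3, 13.9 and 11.5 CPM in EE + SNA. The highest and the lowest Sox2 value of all 12 samples were both in SH SNA, and its log2 fold change there was −0.08 (SE 0.143, adjusted P = 0.788, edgeR).

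Ednrb encodes a receptor through which endothelins act on satellite glia and Schwann cells, and its group means were lower in both enriched groups than in both standard housing groups. It had 109, 84.1 and 78.6 CPM in SH Sham and 104, 88.0 and 74.4 CPM in SH SNA. It had 83.9, 67.8 and 73.8 CPM in EE Sham and 71.4, 77.6 and 69.8 CPM in EE + SNA. All 3 EE + SNA samples lay below the 3 SH Sham samples, beside 31.8% of all genes whose groups did not overlap in that comparison, and the other groups overlapped. Against SH Sham the log2 fold change was −0.27 in EE Sham (SE 0.110, unadjusted P = 0.0253, edgeR) and −0.31 in EE + SNA (SE 0.105, unadjusted P = 0.0108, adjusted P = 0.0717, edgeR). Both comparisons share the 3 SH Sham samples. Against SH SNA it was −0.28 in EE + SNA (SE 0.102, unadjusted P = 0.0181, adjusted P = 0.989, edgeR). The difference of EE + SNA from SH Sham passed the adjusted threshold under 4 of 15 alternatives (adjusted P from 0.000145 to 0.213). 1 library in each standard housing group was high. Without SH Sham replicate 1 the log2 fold changes against SH Sham were −0.12 in EE Sham (unadjusted P = 0.220) and −0.16 in EE + SNA (unadjusted P = 0.0507). Without SH SNA replicate 1 that of EE + SNA against SH SNA was −0.15 (unadjusted P = 0.108).

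In EE Sham against SH Sham, no satellite glia gene passed the adjusted threshold, beside 0.00616% of all genes. At the unadjusted threshold 2 passed, both lower, beside 2.97% of all genes and 1.58% lower. These 2 were Ednrb and Gja1 (log2 fold change −0.19, SE 0.0884, unadjusted P = 0.0498, edgeR). Gja1 was at the threshold and passed it neither without SH Sham replicate 1 (0.105) or 2 (0.234) nor without EE Sham replicate 2 (0.145) or 3 (0.0841). Against SH Sham, EE + SNA called 1 gene of the 10 at the adjusted threshold, Glul, beside 12.5% of all genes. It called 4 at the unadjusted threshold, Glul and Gfap higher and Fabp7 and Ednrb lower, beside 27.2% of all genes. Against EE Sham, EE + SNA called 1 gene, Glul, beside 4.83% of all genes, and 2 at the unadjusted threshold, Glul and Gfap, beside 20.6%. The samples of 3 genes, Glul, Gfap and Gja1, did not overlap there, beside 25.8% of all genes. The median log2 fold change of the 10 genes was −0.07 in EE Sham and −0.01 in EE + SNA against SH Sham, beside 0.00274 and 0.00466 over all genes. In EE + SNA against EE Sham it was 0.09, beside 0.00386.

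**Figure D3:**
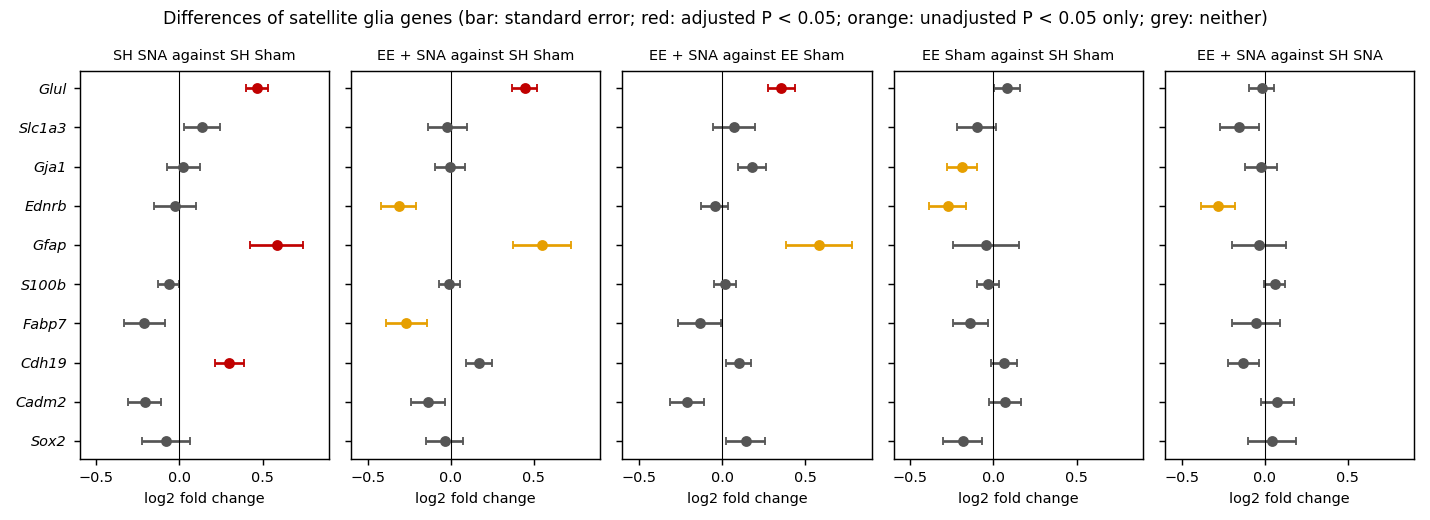
Log2 fold change of each satellite glia gene in 5 comparisons, with the standard error as a bar, coloured by whether the edgeR quasi-likelihood test passed the adjusted threshold, the unadjusted threshold alone or neither. Glul is past the adjusted threshold in the 3 comparisons of axotomy with sham, at 0.47, 0.44 and 0.36, and no gene is in the 2 comparisons of housing.

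Between the 2 axotomy groups few satellite glia genes passed a threshold. No member was called at the adjusted threshold between EE + SNA and SH SNA, beside 0% of all genes, and 1, Ednrb, at the unadjusted threshold, beside 4.1%. Glul had a log2 fold change of −0.02 (SE 0.0757) and Gfap of −0.03 (SE 0.162) in this comparison. The interaction of housing and surgery, which asks if axotomy acted differently after EE, called none of the 10 at either threshold, beside 0% and 2.61% of all genes. The interaction terms were −0.10 for Glul (SE 0.112), 0.01 for Gfap (SE 0.276) and −0.19 for Cdh19 (SE 0.126). A missed threshold does not show that axotomy acted alike in both housings, and the SE was widest for Gfap among these 3.

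Since the interaction passed no threshold in these genes, an additive model of housing and surgery was fitted on all 12 samples after the values above had been seen. With axotomy against sham over both housings, 4 of the 10 genes passed the adjusted threshold, beside 22.4% of all genes. The same 4 passed the unadjusted one, beside 34.7%. Glul (log2 fold change 0.41, SE 0.0553, adjusted P = 3.15e-05), Gfap (0.59, SE 0.133, adjusted P = 0.00389) and Cdh19 (0.20, SE 0.0648, adjusted P = 0.0321) were higher and Cadm2 was lower (−0.21, SE 0.0722, adjusted P = 0.0471, edgeR for all). Glul and Gfap kept the call under all 20 alternatives, Cdh19 and Cadm2 under 11 of 20 each. For Cdh19 the call was lost without SH Sham replicate 2 or 3, SH SNA replicate 1 or 3, EE Sham replicate 1 or EE + SNA replicate 1 or 2 (adjusted P from 0.0505 to 0.0832), and for Cadm2 without SH Sham replicate 1 or 2, SH SNA replicate 2 or 3, EE Sham replicate 1 or EE + SNA replicate 2 or 3 (0.0540 to 0.111). With EE against SH over both surgeries no gene of the 10 passed the adjusted threshold, beside 0% of all genes, and Ednrb alone passed the unadjusted one, beside 4.69% (−0.28, SE 0.0839, unadjusted P = 0.00416, adjusted P = 0.898, edgeR). Its P-value ranked 70 of 16238 genes there, and it stayed below 0.05 under all 20 alternatives, with log2 fold changes from −0.33 to −0.21. Each of these fits left out at most 1 sample. At least 1 of the high Ednrb libraries, SH Sham replicate 1 and SH SNA replicate 1, was therefore in every fit, and a fit without both was not made. Under 1 of the 20 alternatives, with no filter, Ednrb passed the adjusted threshold (adjusted P = 8.49e-05, edgeR), beside 0.505% of all genes.

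**Figure D4:**
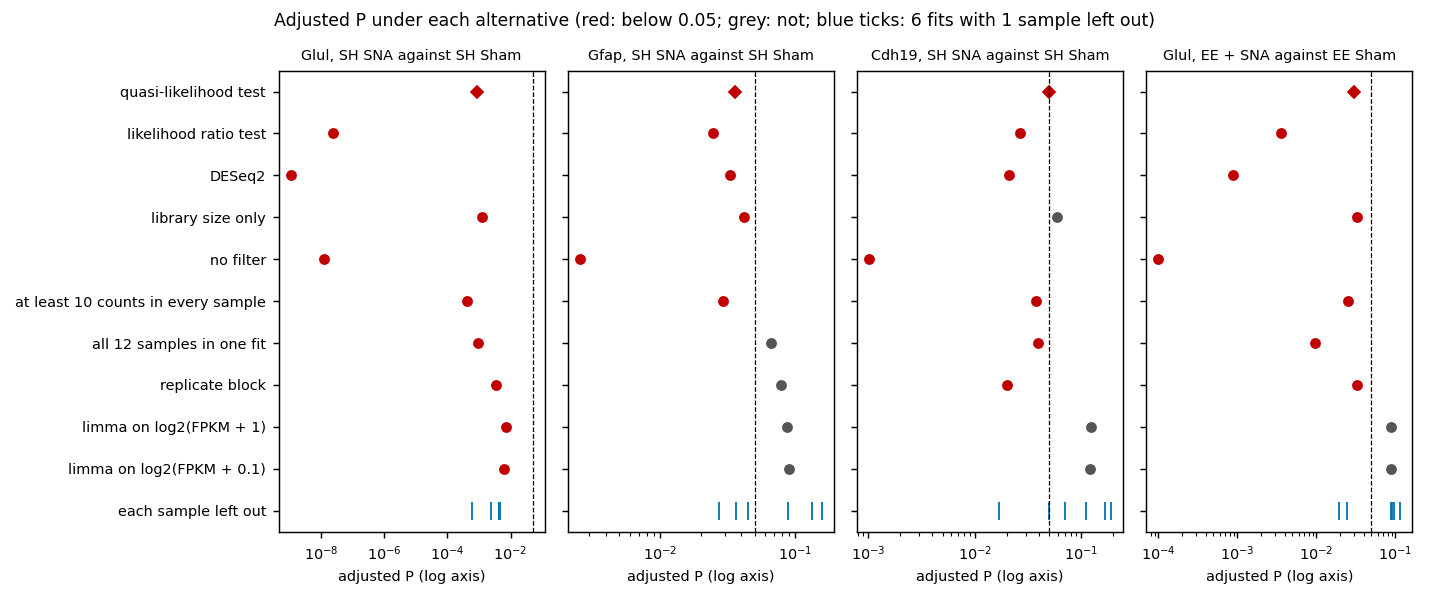
Adjusted P (log axis) of Glul, Gfap and Cdh19 for SH SNA against SH Sham and of Glul for EE + SNA against EE Sham, under the main test and 9 alternatives, with blue ticks for the 6 fits that leave out 1 sample and a dashed line at 0.05. Glul against SH Sham stays left of the line throughout (at most 0.00708), while the other 3 lie on both sides of it.

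The summed CPM of the 10 genes moved with Glul. It was 1616 to 1767 in SH Sham, 1782 to 1926 in SH SNA, 1603 to 1741 in EE Sham and 1766 to 1935 in EE + SNA. Glul made up 24.8% to 29.0% of this sum in SH Sham, 33.3% to 37.6% in SH SNA, 28.1% to 30.0% in EE Sham and 32.2% to 35.7% in EE + SNA. Without Glul the sum was 1147 to 1293 CPM in SH Sham, 1115 to 1285 in SH SNA, 1152 to 1218 in EE Sham and 1144 to 1244 in EE + SNA, so that the groups overlapped. SH SNA replicate 1 was the highest of the 12 samples for 5 of the genes (Gfap, Gja1, Slc1a3, Cdh19 and Sox2) and above the median for 9, and SH Sham replicate 3 was above the median for 1.

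In a list of 16 other satellite glia genes, of which 15 were tested, 2 rose after SH SNA and none fell. Atp1b2, a subunit of the sodium pump, was among them (log2 fold change 0.27, SE 0.0521, adjusted P = 0.00476, edgeR). After EE + SNA 2 rose against SH Sham, Atp1b2 (0.34, SE 0.0654) and the matrix protein gene Sparc (0.31, SE 0.0918). After SH SNA the receptor gene Gpr37l1 stood at 0.20 (SE 0.0753, adjusted P = 0.112). Over both housings 6 of the 15 rose after axotomy and none fell, beside 11.4% of all genes that rose. EE called none of the list in EE Sham, between the axotomy groups or over both surgeries, where it called 0.00616%, 0% and 0% of all genes. For this list and those that follow, the shares of all genes are 6.06% higher and 5.17% lower after SH SNA, and 6.87% higher and 5.63% lower in EE + SNA against SH Sham. The median log2 fold change of the list was 0.12 after SH SNA and −0.03 in EE Sham. Kcnj10, the potassium channel by which satellite glia buffer potassium, averaged 83.0 ± 4.46 CPM in SH Sham and 87.7 ± 9.10 CPM in SH SNA (SD, n = 3) and was not called; it was named after its value was seen.

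Around Glul, the list of 14 other genes of the glutamate and glutamine cycle gave 1 higher and 2 lower genes after SH SNA, and the same counts in EE + SNA against SH Sham. Slc38a1, a glutamine transporter, rose (log2 fold change 0.49, SE 0.0568, adjusted P = 0.000173, edgeR), from 79.5 ± 4.39 to 111 ± 1.33 CPM (SD, n = 3). Slc1a1, a glutamate transporter used by neurons, fell (−0.64, SE 0.140, adjusted P = 0.0111), as did Slc17a7, the vesicular glutamate transporter VGLUT1 (−0.20, SE 0.0539, adjusted P = 0.0299). Got1, an aspartate transaminase, passed no adjusted threshold (0.17, SE 0.0561, adjusted P = 0.0683).

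Around Gja1, 10 of 12 other connexin and pannexin genes were tested and 2 fell after SH SNA, the neuronal genes Panx2 (−0.36, SE 0.0555, adjusted P = 0.00130, edgeR) and Gjd2 (−0.73, SE 0.201, adjusted P = 0.0344). Both fell in EE + SNA as well (−0.40 and −1.09), where Gjb1, the connexin of myelinating Schwann cells, named after its value was seen, rose (0.49). Gjc3, a glial connexin, was not called after SH SNA (0.15, SE 0.0692, adjusted P = 0.208). Around Ednrb, 6 of 7 endothelin genes were tested. The endothelin A receptor gene Ednra fell after SH SNA (−0.67, SE 0.168, adjusted P = 0.0218) and in EE + SNA (−0.58, SE 0.155, adjusted P = 0.0288). It averaged 8.11 ± 1.49 CPM in SH Sham and 8.28 ± 0.197 in EE Sham, against 5.04 ± 0.819 in SH SNA and 5.43 ± 0.185 in EE + SNA (SD, n = 3). The ligand gene Edn1 rose in EE + SNA (1.17, SE 0.241, adjusted P = 0.00803) and was not called after SH SNA (0.55, SE 0.271, adjusted P = 0.231).

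Around S100b, 7 of 11 genes of the S100 family and its receptor were tested, and 2 rose after SH SNA, S100a11 (0.57, SE 0.0643, adjusted P = 0.000138, edgeR) and S100a10 (0.29, SE 0.0549, adjusted P = 0.00475), both of which bind annexins. In EE + SNA 5 of the 7 rose against SH Sham, beside 6.87% of all genes, also S100a1 (0.43) and S100a4 (0.41), and S100a13 (0.32), named after its value was seen. Around Sox2, 10 of 13 SOX and progenitor genes were tested. Sox9, a glial determination factor, rose after SH SNA (1.13, SE 0.274, adjusted P = 0.0187, edgeR) from 1.41 ± 0.333 to 3.08 ± 0.901 CPM (SD, n = 3). In EE + SNA against SH Sham 0 genes of this list rose at the adjusted threshold, so Sox9 was not called there. The adjusted count of the list after SH SNA, 1 in the main test, ran from 0 to 2 over 9 alternatives with no sample left out. Hes5, a target of Notch signalling, fell in EE + SNA (adjusted P = 0.00424, edgeR), from 2.88 ± 0.218 CPM in SH Sham to 0.943 ± 0.389 CPM (SD, n = 3). It was not called after SH SNA (−0.70, SE 0.233, adjusted P = 0.0753) or in EE Sham (−1.36, SE 0.248, adjusted P = 0.394). In EE Sham Hes5 was the 1 gene of this list past the unadjusted threshold, beside 2.97% of all genes. The list gained 1 adjusted call in EE Sham under 3 of 9 alternatives with no sample left out. Sox10, the lineage factor of peripheral glia, was not called (0.14 after SH SNA, SE 0.0715).

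Around Gfap, 1 of 4 other filament genes rose after SH SNA, Vim, which encodes vimentin (0.26, SE 0.0670, adjusted P = 0.0272, edgeR), from 530 ± 35.3 to 632 ± 35.9 CPM (SD, n = 3), and it also rose in EE + SNA (0.27). Synm, the synemin gene, fell in EE + SNA (−0.23, SE 0.0653, adjusted P = 0.0396). Around Cadm2 and Cdh19, none of 8 tested adhesion genes of 10 was called after SH SNA, with Cdh11 (−0.18, SE 0.0595) and Cadm1 (−0.18, SE 0.0624) closest, and 1 rose in EE + SNA, Cadm4 (0.28, SE 0.0759), an adhesion molecule of Schwann cells. Around Fabp7, none of 4 tested fatty acid binding protein genes of 5 was called after SH SNA, and Fabp4, a gene of fat cells and capillaries, rose in EE + SNA (1.56, SE 0.419, adjusted P = 0.0296). At the unadjusted threshold of the edgeR test 4 of the 8 adhesion genes passed after SH SNA, 2 in each direction, and 0 of the 4 fatty acid binding protein genes. DESeq2 also called 0 of either list at the adjusted threshold. Over the 9 alternatives with no sample left out, the adjusted count ran from 0 to 3 for the adhesion genes, beside 8.99% to 13% of all genes. It stayed at 0 for the fatty acid binding proteins. The median log2 fold change after SH SNA was 0.07 for the glutamate and glutamine list, 0.01 for the connexins, 0.04 for the endothelin genes, 0.22 for the S100 genes, 0.00358 for the SOX genes, 0.09 for the filaments, −0.02 for the adhesion genes and 0.02 for the fatty acid binding proteins, beside 0.00465 over all genes tested.

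Markers of other cells of the ganglion moved with axotomy too, and the sum of the sensory neuron markers was also lower in EE Sham. The part of these markers in the changes of the satellite glia genes was not tested. Of 10 genes of myelinating Schwann cells, 1 rose after SH SNA at the adjusted threshold (Drp2, 0.49), beside 6.06% of all genes, and 5 rose in EE + SNA, beside 6.87%. At the unadjusted threshold 7 were higher after SH SNA, beside 13.4% of all genes, and 9 in EE + SNA, beside 14.7%. All 10 had log2 fold changes above 0 in both comparisons, with medians of 0.28 and 0.35, and over both housings 7 of the 10 rose at the adjusted threshold, beside 11.4%. Their summed CPM was 7461 to 9118 in SH Sham, 8042 to 11849 in SH SNA, 6592 to 9428 in EE Sham and 9757 to 12735 in EE + SNA. Of 7 tested genes listed for non-myelinating and repair Schwann cells, 3 rose after SH SNA (Shh, Matn2 and Gfra3), and in EE + SNA 2 rose and 1 fell. Which cells the RNA of this list came from, Schwann cells or others, was not measured. The summed CPM of the list was 1517 to 1658 in SH Sham, 1494 to 1673 in SH SNA, 1491 to 1630 in EE Sham and 1460 to 1550 in EE + SNA. Of 11 sensory neuron genes, 3 fell after SH SNA (Rbfox3, Isl1 and Nefh) and 5 in EE + SNA. In EE Sham 0 were called, while 4 were lower at the unadjusted threshold, beside 1.58% of all genes. For 6 of the 11 all EE Sham samples lay below all SH Sham samples, beside 4.32% of all genes. The sum of the 11 was 22064 to 23407 CPM in SH Sham, 19532 to 20804 in SH SNA, 20594 to 21616 in EE Sham and 19158 to 20476 in EE + SNA. Of 9 tested macrophage genes, 2 rose after SH SNA (Mrc1 and Itgam) and 3 in EE + SNA. Their sums were 74.0 to 80.7 CPM in SH Sham, 87.1 to 121 in SH SNA, 69.03 to 82.0 in EE Sham and 89.4 to 125 in EE + SNA. The neutrophil, endothelium, fibroblast, and pericyte and smooth muscle lists had 0 called after SH SNA at the adjusted threshold by the main edgeR test or DESeq2. At the unadjusted threshold of the main test 3, 0, 1 and 1 passed, all higher. Over the 9 alternatives with no sample left out, the adjusted counts ran up to 5, 0, 1 and 1, beside 8.99% to 13% of all genes. In EE + SNA 1 of 6, 1 of 8, 2 of 6 and 4 of 6 were higher at the adjusted threshold. The neutrophil sum was 70.5 to 188 CPM in SH Sham, 117 to 312 in SH SNA, 94.8 to 222 in EE Sham and 152 to 723 in EE + SNA, where replicate 3 alone stood at 723 and the others at 172 and 152. The endothelium sum was 118 to 146 CPM in SH Sham, 127 to 147 in SH SNA, 109 to 135 in EE Sham and 141 to 159.6 in EE + SNA. The fibroblast sum was 674 to 769 CPM in SH Sham, 668 to 926 in SH SNA, 655 to 766 in EE Sham and 820 to 1036 in EE + SNA. The pericyte and smooth muscle sum was 279.5 to 303 CPM in SH Sham, 308 to 333 in SH SNA, 307 to 328 in EE Sham and 347 to 366 in EE + SNA, so that its EE + SNA samples lay above all others. The 6 skeletal muscle genes summed to 3.05 to 123 CPM in SH Sham, 34.0 to 883 in SH SNA (replicate 2 alone at 883, the others at 34.0 and 37.8), 8.30 to 151 in EE Sham and 97.1 to 150 in EE + SNA. None was called by the main edgeR test, and 5 of 6 were higher at its unadjusted threshold after SH SNA. The adjusted count of this list after SH SNA ran from 0 to 6 over the same 9 alternatives. Without SH SNA replicate 2, 3 of the 10 satellite glia genes were called after SH SNA, beside 10.4% of all genes. Without EE + SNA replicate 3, 1 was called in EE + SNA against SH Sham (9.21% of all genes) and 0 against EE Sham (3.06%). For glia of the spinal cord, the oligodendrocyte genes Olig2 and Opalin were at 0 in all 12 samples and Mog was at most 0.325 CPM. Aqp4, a water channel of astrocytes, averaged 12.1 ± 2.32 CPM in SH Sham (SD, n = 3). None of the 3 tested genes of this list of 7 was called, and its sum was 34.4 to 47.5 CPM over the 12 samples.

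**Figure D5:**
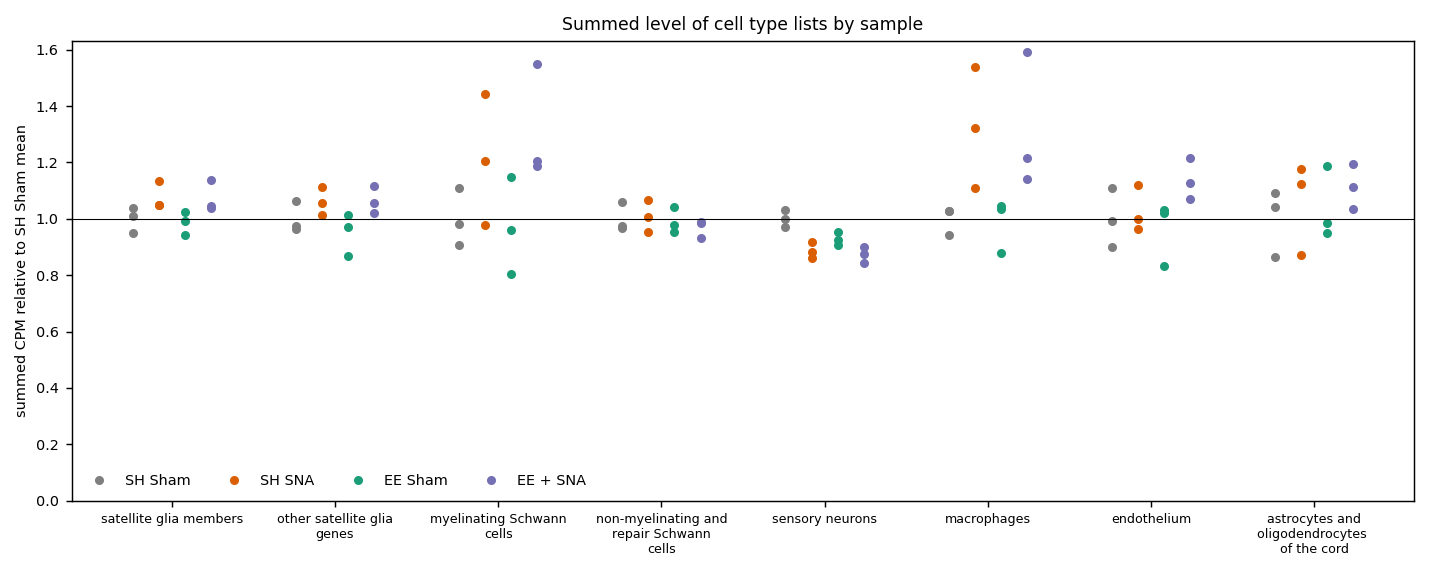
Summed CPM of the satellite glia genes and of 7 marker lists in each sample, divided by the SH Sham mean of the list, with a line at 1. The satellite glia sum lies above its SH Sham range in SH SNA (1782 to 1926 CPM against 1616 to 1767). The sensory neuron sum lies below its SH Sham range in SH SNA, EE Sham and EE + SNA. The myelinating Schwann cell and macrophage sums reach highest in the axotomy groups.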

How the data were processed

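Per the labels and the study's methods, the authors prepared TruSeq mRNA libraries, aligned paired-end reads to mm10 with TopHat2 2.0.12 and Bowtie2 2.2.3 and counted reads per gene with HTSeq, and they deposited whole, unnormalized read counts (5 lines of reads not assigned to a gene were left out here). The deposited FPKM, made by the authors, served for levels per length and for 2 alternatives. For the tests, counts were filtered with filterByExpr over the 4 groups (10 counts, total of 15 counts) and scaled by TMM within each comparison. They were tested with the two-sided quasi-likelihood F test of edgeR 4.0.16 (R 4.3.3), with Benjamini-Hochberg adjustment over 16238 genes. The fits were tested on simulated data. The 10 genes and all lists were chosen with earlier results of these data known, and genes named from a list are among the 4 of lowest adjusted P after SH SNA unless said otherwise or not tested. P-values measure the spread between pools of 2 mice. Within groups, libraries differed by more than sampling noise (chi-square per degree of freedom of 3.90 or more).

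Alternatives were a likelihood ratio test, DESeq2 1.42.0, library size scaling, no filter, 10 counts in every sample, 1 fit of all 12 samples, a replicate block, limma 3.58.1 on log2(FPKM + 1) and log2(FPKM + 0.1), and each sample left out. Replicate numbers were taken to pair samples where every same-numbered r on edgeR's log2 CPM was above 0.1. This held between EE Sham and SH Sham only. There r was 0.331, 0.137 and 0.111, beside up to 0.194 between differently numbered samples, and its lowest on log2(CPM + 1) was 0.0566. Between EE + SNA and SH SNA, r on edgeR's log2 CPM was 0.0573, 0.113 and 0.126, beside up to 0.0403. The rule therefore does not settle which comparisons were paired. No source describes a pairing. Sequences are from RefSeq GRCm38.p6 and gene positions from GENCODE M21. The values of 1 gene in the list of other satellite glia genes are not reported here.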

Additional observations from a re-analysis of the deposited data

How the results depend on the processing

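Of 1350 recomputed values of single satellite glia genes, 1297 were called or not called at the adjusted threshold as in the main test. Another 38 lost and 15 gained the adjusted call with their direction kept. In 81 of the 1297 the sign changed, none with an unadjusted P below 0.05 in either fit. The number of the 10 genes called at the adjusted threshold after SH SNA was 3, and 1 with limma on either FPKM scale (beside 8.99% and 9.08% of all genes). In EE + SNA against SH Sham it was 1, and 3 with the likelihood ratio test (15% of all genes), 2 with DESeq2 (11.3%), 4 with no filter (10.9%) and 2 with 10 counts in every sample (14.3%). In EE + SNA against EE Sham it was 1, and 2 with no filter (6.48%), 2 with the replicate block (5.46%), where Gfap joined Glul, and 0 with limma (2.96% and 2.89%). Over both housings it was 4 after axotomy, and 2 with limma (20.9% on both scales). For EE over both surgeries it was 0, and 1 with no filter (0.505%). At the unadjusted threshold the number after SH SNA was 3, and 5 with no filter (18.1% of all genes) and 5 with the replicate block (26.8%). In EE Sham it was 2, and 1 with the likelihood ratio test, DESeq2, 10 counts in every sample, all 12 samples in 1 fit or limma on log2(FPKM + 0.1), and 0 with limma on log2(FPKM + 1), beside 1.27% (DESeq2) to 3.25% of all genes. In EE + SNA against EE Sham it was 2, and 4 with the replicate block (22.8%).

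With 1 sample left out, the adjusted count ranged from 1 to 3 after SH SNA (beside 7.43% to 10.4% of all genes) and 0 to 0 in EE Sham (0% to 0.0123%). In EE + SNA it ranged from 1 to 2 against SH Sham (7.19% to 12.4%) and 0 to 1 against EE Sham (2.22% to 6.66%). It was 0 to 0 against SH SNA (0% to 0.0431%) and for the interaction (0%). For axotomy over both housings it was 2 to 4 (18.2% to 23.2%), and 0 to 0 for EE over both surgeries (0%). The unadjusted count ranged from 3 to 5 after SH SNA (beside 20.9% to 23.8% of all genes) and 0 to 3 in EE Sham (2.27% to 5.25%). In EE + SNA it ranged from 3 to 5 against SH Sham (22.5% to 27.2%) and 0 to 2 against SH SNA (3.43% to 5.85%). Against EE Sham it was 2 to 3 (15.2% to 24.3%), and 0 to 1 for the interaction (2.23% to 4.75%). For axotomy over both housings it was 4 to 5 (31.9% to 35.7%), and 1 to 3 for EE over both surgeries (4.01% to 6.83%). The cause of these moves was not tested.

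Between EE Sham and SH Sham, taken as paired, the replicate block called 0 of the 10 genes at the adjusted threshold. It called 2 at the unadjusted one (beside 5.22% of all genes), both as without it. Of all genes the block called 29 at the adjusted threshold in place of 1. The other comparisons were not taken as paired, with a lowest correlation of −0.235 between same-numbered samples after SH SNA. Between EE + SNA and SH SNA the same-numbered correlations (0.0573 to 0.126) all lay above those of differently numbered samples (at most 0.0403). A pairing there was not settled. The block took the Gfap call after SH SNA to an adjusted P of 0.0777, while Fabp7 and Cadm2 passed the unadjusted threshold. It called the same 4 genes for axotomy over both housings, beside 24.1% of all genes. It changed no other adjusted call of the 10 genes than these and that of Gfap in EE + SNA against EE Sham (0.0392). Of 1380 adjusted counts of gene lists, with no sample left out, 1182 stayed within 1.5 times and 198 moved. At least 1 count moved for 14 of 20 lists after SH SNA and for 17 in EE + SNA against SH Sham. The widest ranges after SH SNA were 0 to 7 for myelinating Schwann cells (1 in the main test), 0 to 6 for skeletal muscle (0), 0 to 5 for neutrophils (0) and 0 to 4 for macrophages (2), and sensory neurons had 3 to 6 (3). In EE + SNA they were 1 to 8 for myelinating Schwann cells (5), 0 to 6 for neutrophils (1) and 0 to 6 for skeletal muscle (0). Gfap had the fewest reads, 48 to 221 a sample, and the part of depth in its spread was not tested.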
